A study of Mus musculus with 6 samples.

Results

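The genes described here encode 8 integrin subunits (Itga4, Itga5, Itga6, Itgal, Itgam, Itgb1, Itgb2 and Itgb7) together with the surface glycoproteins Cd44 and Cd34. They were chosen by name, and every probe that carries an accession of 1 of them was taken, which gave 19 probes of 10 genes among 55681 probes and 20667 named genes on the array. All 19 member probes were well above background, as the scanner software calls it, in all 6 samples, and each was printed as 1 spot. Itga5, Itga6, Itgb2 and Itgb7 had a single probe, Itga4, Itgal, Itgb1 and Cd34 had 2, Itgam had 3 and Cd44 had 4.

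The cells came from the liver of mouse fetuses at stage E18.5, strain background C57BL6/J, either wild type or lacking Satb1. Satb1 is a chromatin organiser of the lymphoid lineages, and the series asked which genes its loss affects in early progenitors. In each genotype 3 populations without lineage markers were sorted. HSC-enriched cells had high c-kit, Sca-1 and no Flt3, LMPP-enriched cells (lymphoid-primed multipotent progenitors) had high c-kit, Sca-1 and Flt3, and CLP-enriched cells (common lymphoid progenitors) had low c-kit, low Sca-1 and the IL7 receptor. Each of the 6 groups is 1 array. How many fetuses stand behind an array, and which antibodies made up the lineage mixture, is not stated in the labels.

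Integrins are heterodimers of an alpha and a beta chain that bind matrix proteins or counter-receptors on other cells. The alpha4 chain pairs with beta1 to bind fibronectin and VCAM1, which helps hold progenitors in the fetal liver and marrow, and with beta7 to bind the gut addressin MAdCAM1. The beta2 chain is found on leukocytes and pairs with alphaL (LFA-1) or alphaM (Mac-1), which both bind ICAM1. CD44 is a hyaluronan receptor whose transcript is spliced into many forms, and CD34 is a sialomucin of stem and progenitor cells and of endothelium.

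A few promoters are shown because results below turn on their genes: 2 of the 3 Itgam probes were higher in CLP by fold, Cd34 was lower there, and Itgb7 was past 2-fold higher in Satb1-null CLP. The sequences are the 250 bases before the gene start from RefSeq (GRCm38.p6), 5′ to 3′ on the gene's own strand, at chr7:128062390-128062639 (plus strand) for Itgam, chr1:194938571-194938820 (plus) for Cd34 and chr15:102231936-102232185 (minus) for Itgb7. Capitals mark matches, on either strand, to GAGGAA (a core bound by PU.1 and related ETS factors), TGTGGT (bound by RUNX factors), AGATAA (bound by factors of the GATA family) or AACGG (bound by MYB).
Itgam: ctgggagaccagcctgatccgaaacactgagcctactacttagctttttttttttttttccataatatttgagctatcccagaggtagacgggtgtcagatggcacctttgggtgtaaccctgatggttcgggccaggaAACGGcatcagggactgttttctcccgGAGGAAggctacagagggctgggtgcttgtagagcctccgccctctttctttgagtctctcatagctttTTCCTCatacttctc
Cd34: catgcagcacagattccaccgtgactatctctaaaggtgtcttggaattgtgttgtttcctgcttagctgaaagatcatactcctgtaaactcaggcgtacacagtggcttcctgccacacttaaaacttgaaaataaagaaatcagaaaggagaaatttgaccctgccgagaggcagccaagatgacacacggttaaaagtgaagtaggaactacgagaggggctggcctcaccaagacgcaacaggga
Itgb7: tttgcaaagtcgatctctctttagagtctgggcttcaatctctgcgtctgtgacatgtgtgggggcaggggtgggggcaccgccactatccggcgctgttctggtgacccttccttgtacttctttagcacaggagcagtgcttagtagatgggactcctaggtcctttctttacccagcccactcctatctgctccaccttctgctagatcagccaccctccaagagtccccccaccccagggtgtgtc
Counted back from the gene start, the Itgam promoter held AACGG at position -111, GAGGAA at -84 and the reverse complement of GAGGAA at -15. The Cd34 and Itgb7 windows held no match to any of the 4 motifs. Promoters of 7 of the 10 genes were in the table, and 4 of the 7 (Itga5, Itgam, Itgb1 and Cd44) held GAGGAA, against 23.3% of all 32851 promoters. Among the 7, TGTGGT was found only in Itga4, AGATAA only in Cd44 and AACGG only in Itgam, against 14%, 9.99% and 14.5% of all promoters. No binding was measured.

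Levels are log2 signals minus the 75th percentile of the array, so 1 unit is 2-fold, and they are compared between arrays for 1 probe at a time. A difference between single arrays has no replicate, and for the member probes the error the scanner software assigns to it was between 0.204 and 0.333. Tests come from limma, with genotype and population as additive terms across the 6 arrays, for the 30575 probes well above background on at least 3 arrays, adjusted over all of them by Benjamini and Hochberg. Whether the populations of a genotype share fetuses is not stated, so these p-values measure only the spread between the arrays. In sorted bulk samples, fewer cells that make a transcript and less RNA per cell cannot be told apart.

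The arrays of each genotype lay in a row of their own on 1 slide. By its brighter probe Xist was 4.18 to 4.74 in Satb1-null and not above background in wild type, so genotype, slide row and this sex-linked signal cannot be told apart. Satb1 itself was detected everywhere by its 1 probe, at -0.03, 2.0 and 0.71 (HSC, LMPP, CLP) for wild type, then -0.59, 1.96 and 0.65 for Satb1-null. Whether that probe lies in the deleted part is not stated, so it does not check the labels, and Satb1-null stands throughout for the arrays labelled so. The sort markers followed the gates: Flt3 was highest in both LMPP arrays, Il7r in both CLP arrays, and Kit and Ly6a (Sca-1) were lowest in CLP in both genotypes. For Ly6a the wild type gap was small, at 0.29 in HSC and 0.21 in CLP.

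The clearest differences lay between CLP and the other populations. Itgb2 rose and Cd34 fell in CLP, and 2 of the 3 Itgam probes were higher there by fold, while Itga4, Itga6, Itgb1 and the brighter Cd44 probes stayed within 1 log2 unit in the fit. For CLP minus LMPP 2 of the 19 member probes passed, 1 higher and 1 lower, where 2.96% of all probes passed (1.61% higher, 1.34% lower). For CLP minus HSC the same 2 passed, against 2.24% of all probes (1.19% higher, 1.05% lower). At an unadjusted p under 0.05 the members were 9 and 7 of 19, against 23.2% and 23.7% of all probes. For LMPP minus HSC limma called 0 of 19 and 0% of all probes, and 1 of 19 had an unadjusted p under 0.05 against 7.9% of all. Both CLP calls were lost without a detection filter and with the third population left out, and those against HSC also with quantile normalization, with the directions kept.

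**Figure D1:**
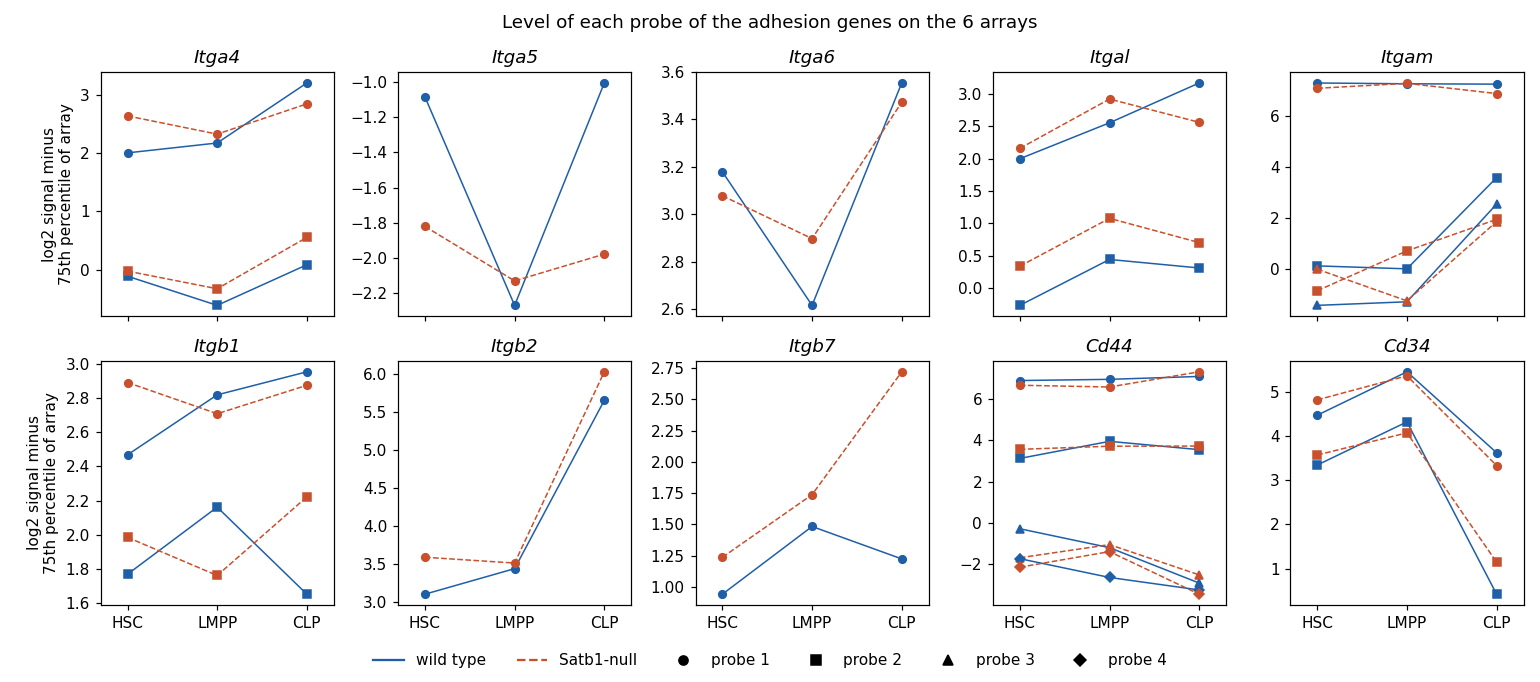
Levels (log2 signal minus the 75th percentile of the array) of the 19 probes in HSC, LMPP and CLP, 1 panel per gene with its own axis. Blue lines join wild type arrays, red dashed lines Satb1-null arrays, and marker shapes separate the probes of a gene. Itgb2 and 2 of the 3 Itgam probes were highest in CLP, and both Cd34 probes were lowest there.

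Itgb2 (probe A_51_P262208, accession NM_008404) encodes the beta2 chain shared by LFA-1 and Mac-1. From HSC through LMPP to CLP its level went 3.10, 3.44 and 5.65 in wild type, and 3.59, 3.51 and 6.03 in Satb1-null. Both CLP arrays lay far above the other 4, which were close together. In limma Itgb2 rose by 2.36 ± 0.26 (SE) from LMPP to CLP (5.14-fold, adjusted p = 0.0388) and by 2.49 ± 0.26 from HSC to CLP (5.63-fold, adjusted p = 0.0407). LMPP and HSC differed by 0.13 ± 0.26 (95% interval -0.57 to 0.83, adjusted p = 0.881).

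Itgal encodes the alphaL chain, the partner of beta2 in LFA-1. Through HSC, LMPP and CLP the first, brighter probe gave 2.0, 2.55 and 3.17 in wild type, then 2.16, 2.92 and 2.56 in Satb1-null. Values of the second probe, which carries another accession, were -0.26, 0.44 and 0.31 in wild type, then 0.34, 1.08 and 0.71 in Satb1-null. HSC was the lowest population for both probes in both genotypes, and the order of LMPP and CLP differed between probes and genotypes. LMPP minus HSC was 0.66 ± 0.34 and 0.72 ± 0.25 for the first and the second probe (limma, adjusted p = 0.649 and 0.63). CLP minus HSC was 0.79 ± 0.34 and 0.47 ± 0.25 (adjusted p = 0.262 and 0.332), and no Itgal contrast passed.

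Itgam encodes the alphaM chain (CD11b), which with beta2 forms Mac-1 of granulocytes and macrophages and is often a target of lineage antibody mixtures. Its first probe (A_55_P1977934, accession NM_001082960) was between 6.86 and 7.28 over the 6 arrays. The second (A_55_P1977929), on the same accession, gave 0.10, -0.01 and 3.57 in HSC, LMPP and CLP of wild type, then -0.87, 0.69 and 1.93 for Satb1-null. Values of the third (A_55_P1977926, accession NM_008401) were -1.45, -1.31 and 2.53 in wild type, then -0.03, -1.27 and 1.84 in Satb1-null. The second and the third probe were thus highest on both CLP arrays, while the first was nearly level.

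CLP minus LMPP was 2.41 ± 0.62 for the second Itgam probe (limma, adjusted p = 0.124) and 3.47 ± 0.56 for the third (adjusted p = 0.0602), against -0.21 ± 0.26 for the first (95% interval -0.89 to 0.48, adjusted p = 0.677). CLP minus HSC was 3.13 ± 0.62, 2.92 ± 0.56 and -0.13 ± 0.26 for the second, the third and the first (adjusted p = 0.0822, 0.079 and 0.802). None passed the threshold, although the second and the third probe were past 2-fold in both genotypes. A rule that keeps the brightest probe of a gene reads only the nearly level one. The median level over the 3 probes gave CLP minus LMPP differences of 3.58 in wild type and 1.24 in Satb1-null.

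Markers of myeloid and other cells moved with Itgb2 and Itgam. Their signals were summed over each list in units of the 75th percentile, and the examples named here were chosen after their values were seen. The 13 granulocyte and monocyte markers, all detected in every sample, summed to between 314 and 469 in HSC and LMPP and to 1613 and 1390 in wild type and Satb1-null CLP. Of the 13, 9 were called higher in CLP than in LMPP and 6 higher than in HSC (1.61% and 1.19% of all probes). Among them was Fcnb, a ficolin of neutrophil granules (CLP minus LMPP 4.97 ± 0.38, limma adjusted p = 0.0346). Csf1r, the receptor of the monocyte growth factor, was not called (-0.03 ± 0.25, adjusted p = 0.95).

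The 9 macrophage markers summed to between 0.621 and 2.09 in HSC and LMPP and to 9.08 and 13.6 in CLP, with C1qa and Cd163 at background (not well above it) in every sample. Of the 5 fitted, 4 were higher in CLP than in LMPP and than in HSC. C1qb, detected in every sample, was lower (-0.09 and -0.49). The 10 erythroid markers summed to between 70.6 and 151 in HSC and LMPP and to 836 and 867 in CLP. Of the 9 fitted, 8 were higher in CLP than in LMPP and than in HSC, and Ermap was lower (-0.07 and -0.46). The 9 mast cell, basophil and eosinophil markers summed to between 7.12 and 23.9 in HSC and LMPP and to 192 and 138 in CLP, with Fcer1a at background throughout. They did not move together. Of the 5 fitted, 3 were higher in CLP than in HSC, namely Prg2 (5.09), Epx (6.09) and Il1rl1 (1.25). Cpa3 (-0.64) and Gata2 (-1.37) were lower, and Cma1 was above background only in HSC. All these sums were highest in CLP, and the part of such cells in the Itgb2 and Itgam results was not tested.

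**Figure D2:**
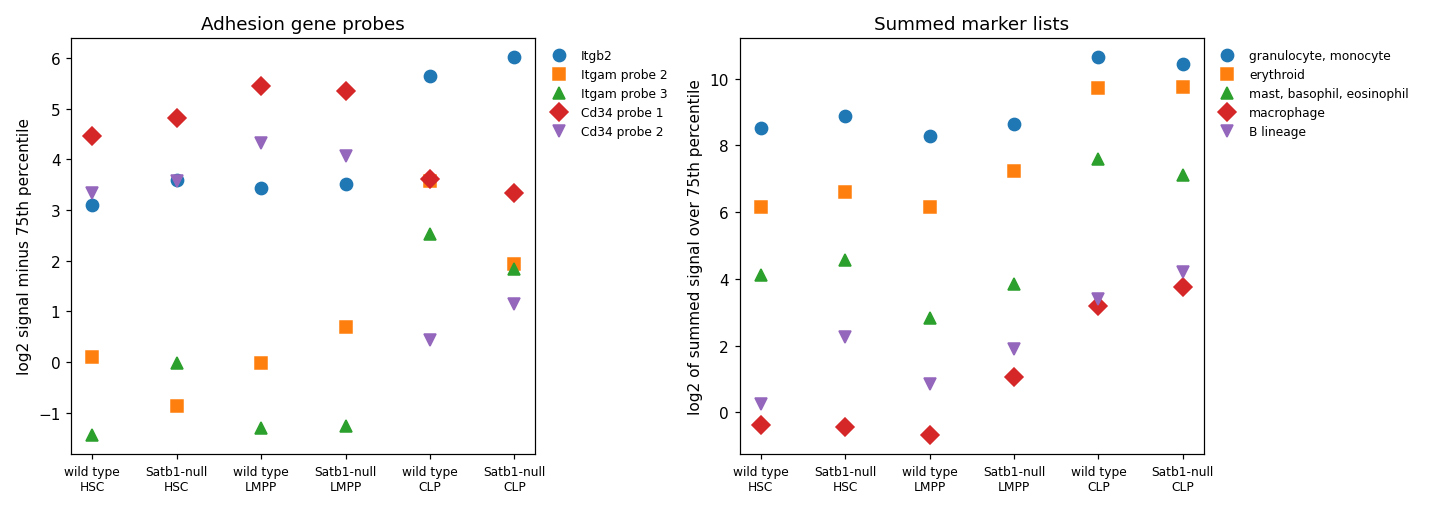
Left, levels of Itgb2, Itgam (probes 2 and 3) and Cd34 on each array, as log2 signal minus the 75th percentile. Right, log2 of the summed signal of 5 marker lists on the same arrays, in units of the 75th percentile. Itgb2, Itgam and the summed markers were highest on the 2 CLP arrays, where Cd34 was lowest.

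Cd34 marks early progenitors. Through HSC, LMPP and CLP its first probe gave 4.47, 5.44 and 3.62 for wild type, then 4.81, 5.35 and 3.33 for Satb1-null. Its second probe (A_55_P2009225), which carries accession NM_133654 like the first (A_51_P204740), gave 3.34, 4.31 and 0.43 for wild type, then 3.57, 4.07 and 1.15 for Satb1-null. The order was LMPP, HSC, CLP for both probes in both genotypes, and the CLP arrays did not overlap with the others.

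By the second probe Cd34 fell by 3.40 on the log2 scale from LMPP to CLP (SE 0.33, 10.6-fold, limma adjusted p = 0.0354) and by 2.67 from HSC to CLP (SE 0.33, 6.35-fold, adjusted p = 0.0452). The first probe gave smaller differences of -1.93 ± 0.28 (adjusted p = 0.0532) and -1.16 ± 0.28 (adjusted p = 0.112), which did not pass. LMPP minus HSC was 0.76 ± 0.28 and 0.74 ± 0.33 for the first and the second probe (adjusted p = 0.63 and 0.641).

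All 4 Cd44 probes carry 1 accession, yet they split into pairs. Over the 6 arrays the first was between 6.59 and 7.33 and the second between 3.13 and 3.96. The third gave -0.28, -1.19 and -2.91 in HSC, LMPP and CLP of wild type, then -1.68, -1.04 and -2.51 for Satb1-null. The fourth gave -1.73, -2.63 and -3.24 for wild type, then -2.14, -1.38 and -3.45 for Satb1-null. The third and the fourth were lowest on both CLP arrays, and the first was highest there.

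CLP minus HSC was 0.42 ± 0.28 and 0.29 ± 0.29 for the first and the second Cd44 probe (limma, adjusted p = 0.424 and 0.587), and -1.73 ± 0.52 and -1.41 ± 0.49 for the third and the fourth (adjusted p = 0.155 and 0.193). None passed the threshold. In 0 of the 9 comparisons of single arrays did all 4 probes have the same sign. Which exons the probes read is not stated, and whether they report different splice forms was not tested.

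Itga4 encodes alpha4, the chain shared by receptors for VCAM1 and MAdCAM1. Its first probe gave 2.0, 2.17 and 3.20 in HSC, LMPP and CLP of wild type, then 2.64, 2.33 and 2.85 for Satb1-null. The second gave -0.11, -0.61 and 0.08 for wild type, then -0.02, -0.33 and 0.55 for Satb1-null. Both probes were highest on both CLP arrays. By the first, wild type CLP was past 2-fold above LMPP (1.03) and HSC (1.20), though under alternatives to the processing these fell as low as 0.98 and 0.93. In Satb1-null the same differences were 0.52 and 0.21, and the second probe stayed under 2-fold in every comparison. CLP minus LMPP was 0.77 ± 0.34 and 0.79 ± 0.26 (limma, adjusted p = 0.266 and 0.175).

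Itgb1 encodes the common partner of alpha4, alpha5 and alpha6. Its first probe was between 2.47 and 2.96 and its second between 1.65 and 2.22 over the 6 arrays. No difference of either probe passed 2-fold in any of the 9 comparisons, and the population order differed between probes and genotypes. CLP minus LMPP was 0.15 ± 0.28 (95% interval -0.60 to 0.90) and -0.02 ± 0.33 (95% interval -0.92 to 0.87), with limma adjusted p = 0.789 and 0.972.

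Itga6, a laminin receptor chain found on stem cells, gave 3.18, 2.62 and 3.55 in HSC, LMPP and CLP of wild type, then 3.08, 2.90 and 3.47 for Satb1-null. The order was CLP, HSC, LMPP in both genotypes, although HSC and LMPP of Satb1-null lay within the scanner error of each other. CLP minus LMPP was 0.76 ± 0.26 (limma, adjusted p = 0.191). Itga5, the alpha chain of the classical fibronectin receptor, gave -1.09, -2.27 and -1.01 for wild type, then -1.82, -2.13 and -1.98 for Satb1-null. Wild type LMPP was past 2-fold below wild type HSC (-1.18, or -0.48 with normexp and -0.91 with median centring). It was also past 2-fold below wild type CLP (CLP minus LMPP 1.26, or 0.59 with normexp). The Satb1-null arrays were close together, and no population contrast passed (adjusted p between 0.33 and 0.962).

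Itgb7 (probe A_51_P359603, accession NM_013566) encodes beta7, which with alpha4 binds MAdCAM1 on the venules of gut lymphoid tissue. Its level was 0.94, 1.48 and 1.23 in the wild type series of HSC, LMPP and CLP, then 1.24, 1.74 and 2.72 in Satb1-null. Satb1-null CLP stood clear of every other array, and LMPP was above HSC in both genotypes. CLP minus HSC was 0.88 ± 0.41 (limma, adjusted p = 0.288), from 0.28 in wild type and 1.48 in Satb1-null.

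Counted over probes for CLP minus LMPP, 8 of 19 passed 2-fold in wild type, 5 higher and 3 lower (31.8% of all probes, 13.6% higher and 18.2% lower), and 7 in Satb1-null, 3 higher and 4 lower (30.1% of all probes, 13.7% higher and 16.4% lower). For CLP minus HSC, 8 passed in wild type, 5 higher and 3 lower (34.3% of all probes, 14.4% higher and 19.9% lower), and 7 in Satb1-null, 4 higher and 3 lower (29.4% of all probes, 13.2% higher and 16.2% lower). For LMPP minus HSC, 1 passed in wild type, Itga5, which was lower (17.3% of all probes, 6.51% higher and 10.8% lower). In Satb1-null 2 passed, the second Itgam probe higher and the third lower (18.2% of all probes, 8.48% higher and 9.76% lower). As shares of the 19 probes these were 42.1% in wild type and 36.8% in Satb1-null for both CLP comparisons, and 5.26% and 10.5% for LMPP minus HSC. Several of the passing probes read the same gene, so they are not independent. Whether the shares differ from those of all probes was not tested.

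Past 2-fold the same way in both genotypes were 3 higher and 3 lower probes for CLP minus LMPP (6.34% and 7.68% of all). These were Itgb2 and the second and the third Itgam probe, and both Cd34 probes and the third Cd44 probe. The Cd44 difference stayed past 2-fold under 6 of 7 alternatives to the processing in each genotype. At its smallest it was -0.65 in wild type and -0.84 in Satb1-null. The other differences stayed past 2-fold under all 7. Among the 7, no detection filter and the authors' values could not change a member difference. For CLP minus HSC there were 3 and 2 (6.4% and 7.82%), the lower ones being the second Cd34 and the fourth Cd44 probe. The fourth Cd44 probe was at -3.24 and -3.45 on the CLP arrays, not far above the lowest detected signals (-4.19 to -3.99). Its differences, -1.51 in wild type and -1.31 in Satb1-null, came to -0.54 and -0.43 at their smallest under the alternatives. For LMPP minus HSC there were 0 and 0 (1.59% and 2.27%). The sign matched between genotypes for 15, 16 and 9 of 19 probes in those comparisons (67.9%, 68.2% and 61.8% of all). Both CLP arrays lay above the other 4 for 7 probes (16% of all) and below them for 4 (20.4%).

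**Figure D3:**
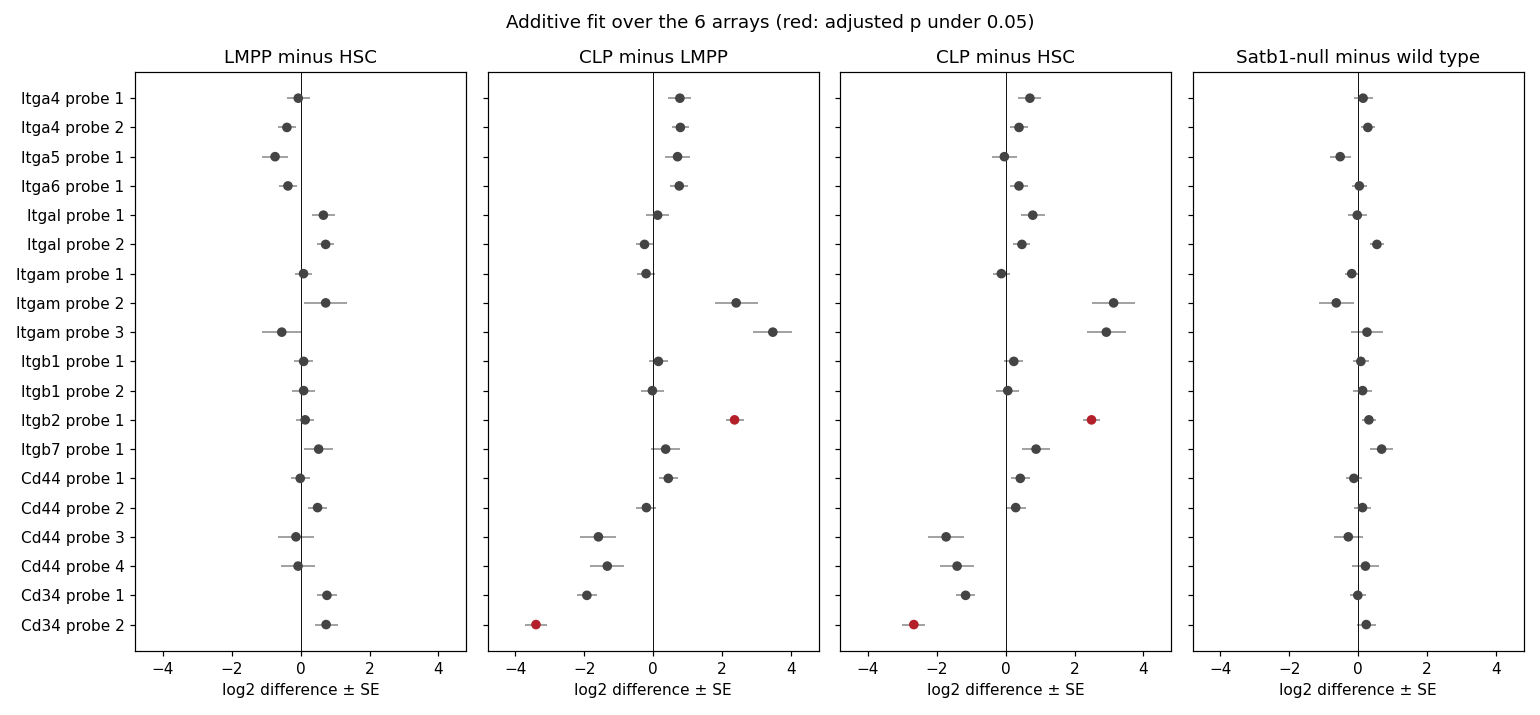
Log2 differences (points) with their SE (bars) for the 19 probes from the limma fit over the 6 arrays, for LMPP minus HSC, CLP minus LMPP, CLP minus HSC and Satb1-null minus wild type. Red points passed an adjusted p of 0.05: Itgb2 and the second Cd34 probe in the 2 CLP contrasts, and none for LMPP minus HSC or for genotype.

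Between genotypes, limma called 0 of 19 probes, where 0.0131% of all probes were called, and 1 of 19 had an unadjusted p under 0.05 against 6.21% of all. The median Satb1-null minus wild type difference of the members was 0.13, against -0.02 for all probes. The lowest unadjusted p was that of the second Itgal probe (0.54 ± 0.20, adjusted p = 0.768), which was higher by 0.60, 0.63 and 0.39 in HSC, LMPP and CLP. The first Itgal probe differed by 0.16, 0.37 and -0.61, so the probes of the gene parted in CLP.

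In HSC, 2 of 19 probes passed 2-fold between genotypes (18.6% of all probes, 7.91% higher and 10.7% lower), namely the third Itgam probe (1.42) and the third Cd44 probe (-1.40). The second Itgam probe went the other way there (-0.98). In LMPP it was 1 of 19 (13% of all probes, 7.11% higher and 5.94% lower), the fourth Cd44 probe (1.25). The other Cd44 probes stayed under 2-fold in both populations. With normexp background correction the differences of the third Itgam and the third Cd44 probe in HSC and of the fourth Cd44 probe in LMPP were 0.95, -0.89 and 0.53, no longer past 2-fold.

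In CLP 2 of 19 passed (23.3% of all probes, 12.5% higher and 10.8% lower). Itgb7 was higher in Satb1-null by 1.49, and the second Itgam probe differed by -1.64. The first and the third Itgam probe differed by -0.37 and -0.69, so all 3 were lower there in Satb1-null. For Itgb7 the difference was 0.29 in HSC and 0.25 in LMPP, and 0.68 ± 0.34 over the populations (95% interval -0.22 to 1.58, limma adjusted p = 0.769). Without the CLP arrays it was 0.27, so its size rests on 1 pair of arrays, and whether it differs between populations was not tested.

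Itga4, the partner of Itgb7, differed in CLP by -0.36 and 0.47 by its first and second probe, in opposite directions. In all 3 populations, 4 of 19 probes kept 1 direction (29.7% of all). All 4 were higher in Satb1-null (12.3% of all), and 0 were lower (17.4%). They were Itgb7, Itgb2 (0.49, 0.07 and 0.38) and the second probes of Itgal and Itga4. For Itgb2 the LMPP difference (0.07) was under its scanner error and came to 0.01 at its smallest under the alternatives to the processing. For Itga4 the HSC difference (0.09) was under its scanner error and turned to -0.04 with the 75th percentile taken over detected probes. Past 2-fold the same way in all 3 were 0 (0.611% of all). Over the populations, the difference was 0.31 ± 0.21 for Itgb2 (95% interval -0.26 to 0.88, limma adjusted p = 0.807), and -0.01 ± 0.23 and 0.23 ± 0.27 for the Cd34 probes (adjusted p = 0.996 and 0.88).

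**Figure D4:**
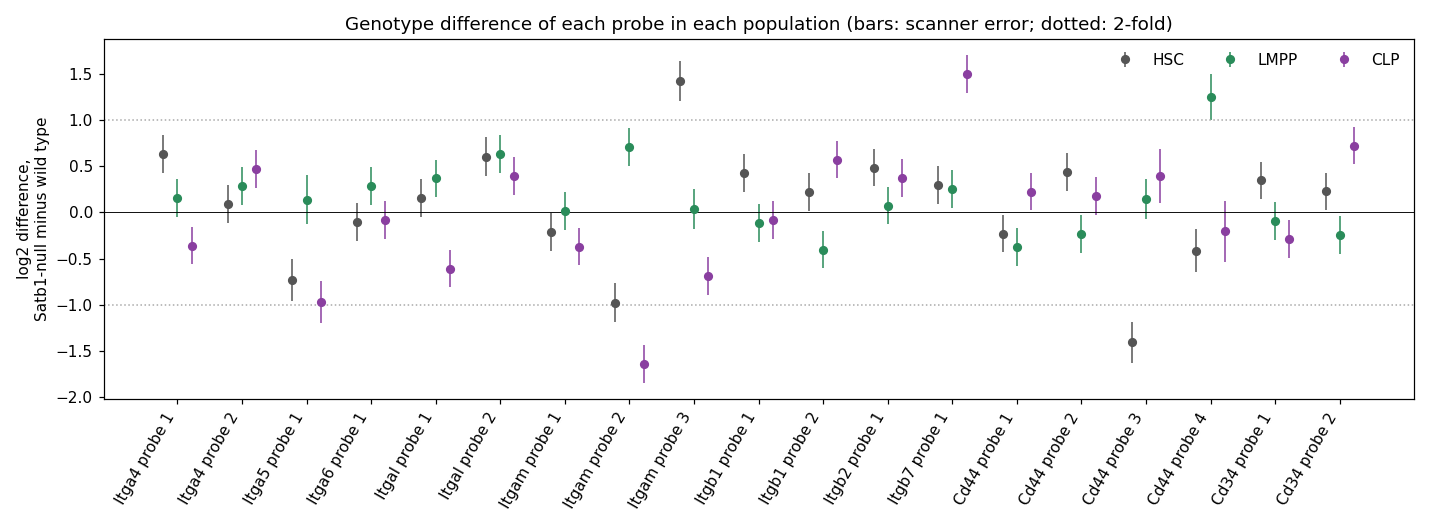
Satb1-null minus wild type differences (log2) of the 19 probes in HSC (grey), LMPP (green) and CLP (purple), with the scanner error of each difference as a bar and dotted lines at 2-fold. Past 2-fold lay the third Itgam and the third Cd44 probe in HSC, the fourth Cd44 probe in LMPP, and the second Itgam probe and Itgb7 in CLP.

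Genes that work with these receptors were read through the brightest probe of each. For the calls in these lists, the shares of all probes were 1.61% higher and 1.34% lower for CLP minus LMPP. For CLP minus HSC they were 1.19% higher and 1.05% lower. Of 18 other integrin subunits 16 had a named probe and 7 were fitted, with none called in any contrast. Their median for CLP minus LMPP was 1.88, against -0.12 for all probes. Some of the 7 were well above background on only 3 or 4 arrays. A subunit dim outside CLP can enter the fit through its CLP arrays, so this median is a description only. Itgb3, the beta chain of the platelet fibrinogen receptor, gave 2.59, 2.43 and 5.85 in HSC, LMPP and CLP of wild type, then 3.26, 3.59 and 5.35 for Satb1-null. It was highest on both CLP arrays (CLP minus LMPP 2.59 ± 0.47, limma adjusted p = 0.0714), and its platelet partner Itga2b differed by 2.26 ± 0.72 (adjusted p = 0.171). The 11 megakaryocyte markers, which include both, summed to between 44.6 and 66.7 in HSC and LMPP and to 128 and 88.1 in CLP, and their part was not tested.

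Of 27 genes of integrin activation and adaptors, 23 were fitted, with 1 higher and 1 lower in CLP than in LMPP, and the same pair against HSC. Parvb, an adaptor that links integrins to actin, was at background in HSC and at least 3.84 higher on the log2 scale in CLP (limma adjusted p = 0.0349). Ptk2, the focal adhesion kinase, was between -1.62 and -0.92 in HSC and LMPP and at background on both CLP arrays, a fitted CLP minus LMPP difference of -2.66 or beyond (adjusted p = 0.0402). The fitted talin, kindlin and Rap1 genes (Tln1, Fermt2, Fermt3, Rap1a, Rap1b), which switch integrins on, were not called.

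Of 20 integrin ligand genes 16 were fitted, and 2 rose and 1 fell in CLP against LMPP and against HSC. Thbs1, a thrombospondin, was between 0.06 and 0.43 in HSC and LMPP and 4.37 and 4.34 in wild type and Satb1-null CLP (CLP minus LMPP 4.11 ± 0.26, limma adjusted p = 0.0346). Vcam1, the alpha4beta1 ligand, which is also among the macrophage markers, was at least 4.28 higher in CLP than in LMPP (adjusted p = 0.0456), with wild type LMPP at background. Jam3, a junctional adhesion molecule that binds Mac-1, fell by 2.76 from HSC to CLP (adjusted p = 0.0398).

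Of 15 CD44 partners 12 were fitted, with 1 called higher in CLP than in LMPP and 2 higher than in HSC. Both, Stab2 and Lyve1, are hyaluronan receptors of sinusoidal or lymphatic endothelium and are also among the endothelial markers. Stab2 was at least 3.71 higher in CLP than in LMPP (limma adjusted p = 0.0346), with Satb1-null HSC and LMPP at background. Lyve1 was at background in HSC and at least 5.34 higher in CLP (adjusted p = 0.0463). The ezrin, moesin and radixin genes (Ezr, Msn, Rdx), which anchor CD44 to actin, were not called.

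Of 8 genes of the CD34 family and the selectin axis 6 were fitted, and Emcn, an endothelial sialomucin, fell by at least 3.01 from LMPP to CLP (limma adjusted p = 0.0388, Satb1-null CLP at background). Of 20 further progenitor adhesion genes 18 were fitted. Against LMPP, Prom1, Cdh5 and Thy1 were called higher in CLP and Jam3, Cd48 and Robo4 lower. Against HSC, Cdh5 was called higher and Jam3, Robo4 and Esam lower (Thy1, Cd48 and Robo4 were named after their values were seen).

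Esam, an adhesion molecule of endothelium and stem cells, gave -0.16, -1.09 and -3.17 in HSC, LMPP and CLP of wild type, then 0.45, -1.23 and -3.69 for Satb1-null (CLP minus HSC -3.57 ± 0.36, limma adjusted p = 0.0404). Like Cd34, Esam and Jam3 were lowest on both CLP arrays. Prom1, a pentaspan protein of progenitor membranes, rose by 4.73 ± 0.42 from LMPP to CLP (adjusted p = 0.0352), and the endothelial cadherin Cdh5 by at least 4.28 (adjusted p = 0.0352). The 8 endothelial and stromal markers include Cdh5, Stab2 and Lyve1, so their sum is not separate from the calls of those genes. The sum was between 4.64 and 5.3 in HSC and LMPP, and 14.7 and 6.41 in wild type and Satb1-null CLP. Col1a1 was at background throughout. Of the 7 fitted, 4 were higher in CLP than in LMPP (Cdh5, Stab2, Lyve1 and Kdr). Lower were Tek (-1.53 or beyond), Pdgfrb (-1.65) and Cxcl12 (-0.59). The part of such cells was not tested. No gene of these 6 lists was called between genotypes, where 0.0131% of all probes were called.

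Named genes whose pattern over the 6 arrays was most like that of a member were sought among 6482 genes that spanned at least 1 log2 unit, by Pearson's r, as a description only, since the arrays share genotypes and populations. For Itgb2 they were Mtmr1 (r = 0.999) and Fgd4 (r = 0.998), and for Cd34 BC028528 (r = 0.997) and Tmem107 (r = 0.997). For Itgb7 they were Chst15 (r = 0.988) and Piga (r = 0.984), and for Itga4 Itpripl1 (r = 0.996) and Hmox1 (r = 0.993). For Itgal they were Mbd4 (r = 0.995) and H4c12 (r = 0.994), and for Itga5 Ace (r = 0.970) and Acer2 (r = 0.964).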

How the data were processed

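Cy3-labelled cDNA amplified from 6.1 ng of total RNA per sorted population was hybridised to 1-colour Agilent arrays, 1 per group. The deposited scanner files give spot intensity on a linear scale, made with Feature Extraction 10.10.1.1 per the file headers (10.10 per the submitters' processing notes). The authors' deposited table equals this intensity times 1 constant per array (5.71 to 8.77, basis unknown; column medians 120.7 to 200.1), with no centring and no direction. Control spots and outlier spots (154 to 181 per array) were left out, log2 signals were centred on the 75th percentile, and spots of a probe averaged. No spot was saturated, and 52.4% to 57.7% were well above background. The number of arrays limits the precision.

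RefSeq accessions of GRCm38.p6 named 27248 of 55681 probes. Differences of single arrays were counted past 2-fold. For limma 3.58.1 (lmFit, eBayes), signals at background were first lifted to the lowest detected signal (-4.19 to -3.99), which makes such differences bounds, written "at least". The fit was tested on simulated data. Members and lists were chosen with earlier results of these data known. Beside the members, the genes named are up to 4 called genes per list, by adjusted p, or, if none was called, the 2 with the largest mean difference, and the 2 genes most like each member with a span of 1 or more. Alternatives were normexp (offset 50, on the median signal, since the files hold no mean signal), median centring, quantile normalization, no detection filter, the authors' values, outlier spots kept, fits without 1 population and, chosen after seeing the data, the 75th percentile over detected probes and the gene-level median over probes.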

Additional observations from a re-analysis of the deposited data

How the results depend on the processing

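None of the 38 member differences past 2-fold changed sign under the 7 alternatives to the scaling, filter and values, while 25 of all 171 member differences did, the largest of them 0.40. Not all of the 7 could change a member difference. The filter dropped no value of the 19 member probes, and the authors' values differ from the signal only by 1 constant per array. Kept outlier spots hardly moved the differences. The authors' values and kept outlier spots left every count of member calls as it was. For CLP minus LMPP limma called 5 member probes with normexp and 0 without a detection filter, and for CLP minus HSC 5 with normexp, 0 with quantile normalization and 0 without a detection filter. With the remaining population left out, both leave-one-out counts were 0, as were those over all probes in these fits of 4 arrays. The calls that normexp added were the first Cd34 probe and the second and the third Itgam probe. With quantile normalization the limma adjusted p for CLP minus HSC was 0.050 for Itgb2 and 0.0513 for the second Cd34 probe. With median centring the third Itgam probe passed for CLP minus LMPP and the second for CLP minus HSC. Past 2-fold under normexp were 0 members between genotypes in HSC, 0 in LMPP, 5 for CLP minus LMPP in wild type and 1 for LMPP minus HSC in Satb1-null. Over all probes these counts fell too, from 6348 to 1316, 4153 to 641, 10404 to 4487 and 5918 to 1341. With median centring 3 members passed for LMPP minus HSC in wild type (6639 of all probes, against 5820), where it moved the median of all probes by 0.27; for CLP minus HSC in wild type that shift was 0.50. Over all probes limma called 904 for CLP minus LMPP and 685 for CLP minus HSC, against 2492 and 2477 with normexp, 1168 and 1367 with median centring, 439 and 285 with quantile normalization, and 0 and 0 without a detection filter. The cause was not tested. The labels give no replicate numbers to pair by. Population is a term of the fit, so genotypes were compared within populations.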
